A study of Mus musculus with 6 samples.

Results

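The genes described here encode the extracellular matrix of the liver and the proteins that remodel it. They are 37 genes of collagens, laminins, matricellular glycoproteins, proteoglycans, crosslinking enzymes, matrix proteases and their inhibitors, and the TGF-beta response, each taken as the row of the count files whose gene symbol equals the listed name. All 37 were found among 23282 rows, and 32 of them passed the filter on low counts that left 12505 rows for testing. The data are liver RNA of male C57BL/6N mice (C57BL/6 in the sample labels) that were 8 weeks old when a high-fat diet began and ate it for 12 weeks. One group of 3 libraries came from mice given atractylodin, a polyacetylene of Atractylodes rhizomes, at 10 mg/kg by mouth on 5 days of each of the last 4 weeks, after 8 weeks of diet alone. The other group of 3 libraries came from mice given the vehicle over the same time. Both groups carry the diet and no group on a control diet was analysed here, so each value compares atractylodin with vehicle in mice fed high fat. The labels do not say that each library is a separate animal, and p-values therefore measure the spread between these libraries, which may be technical.

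In the liver, fibrillar collagens form the tensile fibres around portal tracts and, in fibrosis, along the sinusoids. Type IV collagen, laminins and nidogen make up basement membranes, which are sparse along normal sinusoids. Most collagen transcripts of an injured liver come from activated hepatic stellate cells and portal fibroblasts, whereas endothelial cells add basement membrane and hepatocytes secrete fibronectin into plasma. Lysyl oxidases crosslink collagen, matrix metalloproteinases cleave it, TIMP proteins inhibit the metalloproteinases, and TGF-beta drives the programme in stellate cells.

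QuantSeq reads 1 stretch near the 3' end of each transcript, so values are CPM with no division by gene length. TMM puts the counts of all libraries on 1 scale. Levels are not ranked between genes, except where a gene is called the most abundant or the lowest of its list, which refers to CPM or counts. The atractylodin libraries held 9871762 to 12565393 counts, against 1831461 in vehicle 1 and 11120089 and 12111553 in vehicle 2 and 3. A count of 3 was worth 0.251 to 0.313 CPM in the atractylodin libraries, against 1.61 CPM in vehicle 1 and 0.243 and 0.258 CPM in the other vehicle libraries. The tissue label was checked with 8 hepatocyte genes such as Alb, which summed to 79640 to 86990 CPM with atractylodin and 82670 to 90600 CPM with vehicle. Alb made up most of this sum, and Ass1, the lowest of the list, averaged 6.55 CPM with atractylodin and 5.81 CPM with vehicle. Vehicle 2 stood apart in the matrix genes. It was the highest of the 6 libraries for 18 of the 32 tested members (56.2%), against 16.3% of all tested rows. An atractylodin library was the highest for 4 of the 32 and for 6069 of the 12505 rows, so these shares also carry the difference between groups. The level of vehicle 2 over the mean of vehicle 1 and 3 had a median of 1.31 over the members and 0.998 over all rows. Results are therefore given with and without vehicle 2 wherever that library changes the call of a named gene or moves its fold change by more than 1.5 times. Smaller moves are given for some genes only. RNA came from whole liver, so fewer cells of a type and less RNA per cell cannot be told apart.

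Matrix genes had mostly lower estimates in atractylodin livers than in vehicle livers. By edgeR's quasi-likelihood test at an adjusted p of 0.05, Sparc, Col5a1, Col4a2 and Tgfbi fell, Timp3 rose, and 27 of the 32 tested members did not pass. Those 4 falls stand beside a background of 3.33% of all 12505 rows that fell, the 1 rise beside 3.92% that rose, and the 5 calls beside 7.25% called either way. The estimate was lower with atractylodin for 30 of the 32 (93.8%, against 50.2% of all rows), and the exceptions were Timp3 and Fbn1. Over the tested members the median log2 fold change was -0.51, against -0.0015 over all rows. All atractylodin libraries lay below all vehicle libraries for 14 of them, where 12.6% of all rows did so, and above them for 1, where 13.5% did so. These counts cover only the members that passed the filter and are a description, with no test of the list.

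The size of the pattern moved with vehicle 2. Without it, 2 members fell and 1 rose, where 2.29% of 12768 rows fell and 2.8% rose. The estimate was then lower for 26 of the 32, with a median of -0.39. DESeq2 on all libraries called 7 of 33 members lower, where 2.91% of 12254 rows were. The plot of fold changes by class gives every tested member.

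**Figure D1:**
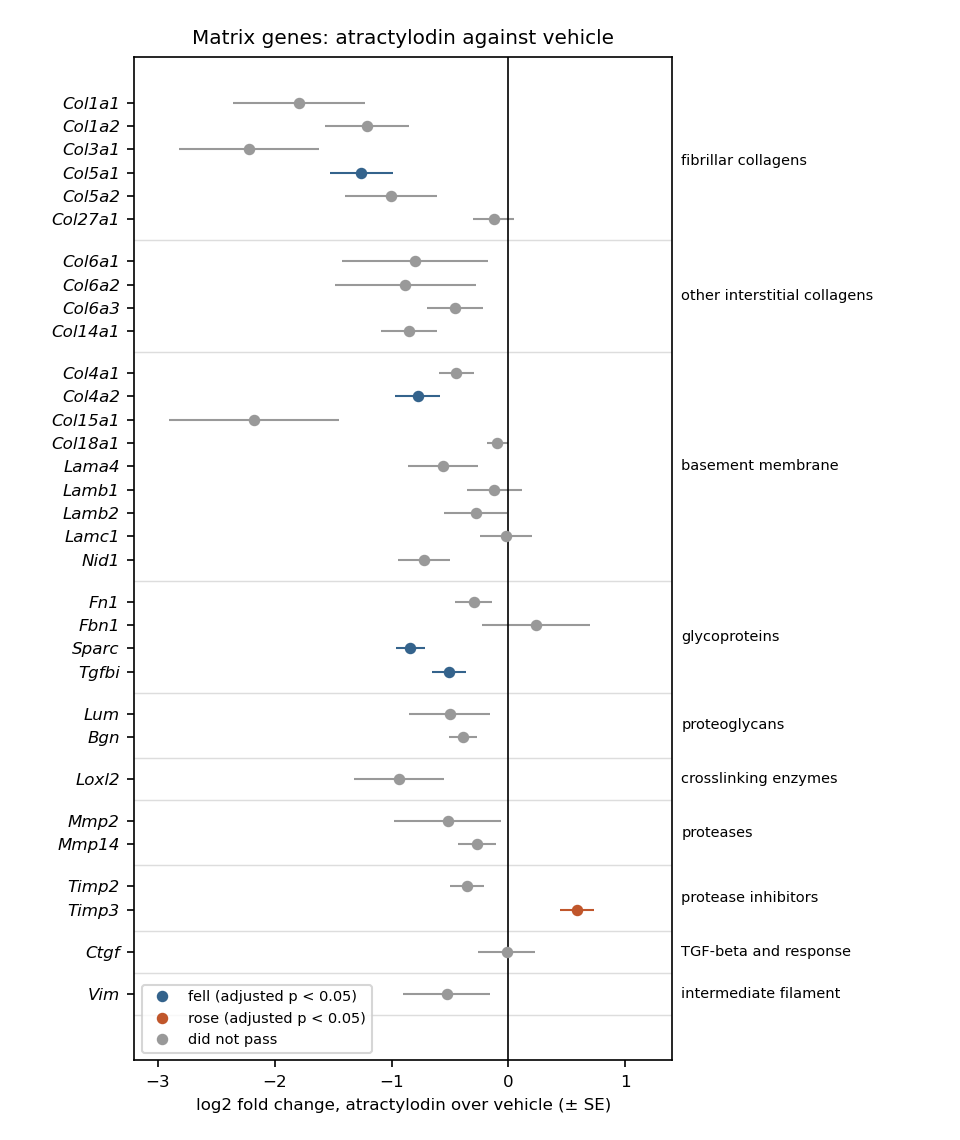
Log2 fold change of each tested matrix gene, atractylodin over vehicle (horizontal axis), with its SE from edgeR as a bar (n = 3 libraries each). Genes run down the page by class; blue marks the 4 that fell, orange Timp3, which rose, and grey the 27 that did not pass. Col3a1 lies farthest to the left at -2.22, and the bars of Col1a1 and Col3a1 (SE 0.57 and 0.60) are wider than that of Sparc (0.13).

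Of the 6 fibrillar collagens Col5a1 fell and 5 did not pass, and each of the 6 had a lower estimate with atractylodin. Their summed level was 69.25, 71.84 and 73.07 CPM in atractylodin 1, 2 and 3, against 103.4, 184.1 and 107.5 CPM in vehicle 1, 2 and 3. The groups did not overlap, and vehicle 2 stood far above the other vehicle libraries. The 6 had a median log2 fold change of -1.23, 5 of them had an unadjusted p under 0.05 (21.5% of all rows did), and for 5 all atractylodin libraries lay below all vehicle libraries (12.6% of all rows).

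Col5a1 encodes a chain of type V collagen, which sits inside type I fibrils and controls their diameter (GRCm38 chr2:27886425-28039514, plus strand). It had 3.89, 3.97 and 3.84 CPM in atractylodin 1, 2 and 3, against 9.15, 11.8 and 6.95 CPM in vehicle 1, 2 and 3. The atractylodin libraries lay within a narrow range below every vehicle library. Col5a1 fell 2.39-fold, a log2 fold change of -1.26 ± 0.27 (SE, n = 3 each) with an edgeR adjusted p of 0.00697. Without vehicle 2 the estimate was -0.97 with an adjusted p of 0.0904, and the call was also lost when all libraries were thinned to the depth of vehicle 1.

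Col3a1, the chain of type III collagen and an early product of activated stellate cells (chr1:45311538-45349706, plus strand), had 9.57, 4.18 and 5.34 CPM in atractylodin 1, 2 and 3. It had 17.2, 48.9 and 18.2 CPM in vehicle 1, 2 and 3. Each vehicle library was above each atractylodin library, and vehicle 2 was far above the other vehicle libraries. The log2 fold change was -2.22 ± 0.60 with an adjusted p of 0.127. Without vehicle 2 the estimate was smaller, -1.49, yet the adjusted p was 0.00923 and passed.

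Col1a1 and Col1a2 encode the chains of type I collagen, the main protein of scar tissue. Col1a1 (chr11:94936224-94953042, plus strand) had 4.48, 2.71 and 5.01 CPM in atractylodin 1, 2 and 3, against 6.998, 24.6 and 7.92 CPM in vehicle 1, 2 and 3. Groups did not overlap, but vehicle 2 held 3.29 times the mean of the other vehicle libraries. The log2 fold change of -1.79 ± 0.57 had an adjusted p of 0.144, and without vehicle 2 it was -0.89 with an adjusted p of 0.147. Col1a2 averaged 15.4 ± 4.72 CPM with atractylodin and 34.8 ± 13.99 CPM with vehicle (SD, n = 3 each), with a log2 estimate of -1.21 ± 0.36 (adjusted p = 0.128), or -0.76 without vehicle 2 (adjusted p = 0.0678). DESeq2 called Col1a1, Col1a2 and Col3a1 lower on all libraries and limma-voom called Col1a2 and Col3a1, so the side of the threshold on which these genes fall depends on the tool.

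Col5a2, the partner chain of Col5a1, averaged 1.79 ± 0.62 CPM with atractylodin and 3.55 ± 0.29 CPM with vehicle, with a log2 estimate of -1.004 ± 0.39 (adjusted p = 0.141). Its gene lies tail to tail with Col3a1 on chromosome 1, 24614 bases apart. Col27a1, a fibrillar collagen known from cartilage, had 39.9 ± 10.3 CPM with atractylodin and 42.7 ± 4.93 CPM with vehicle, overlapping groups and a log2 fold change of -0.13 ± 0.18. The plot of levels by library shows the 5 called genes and the type I and III collagens.

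**Figure D2:**
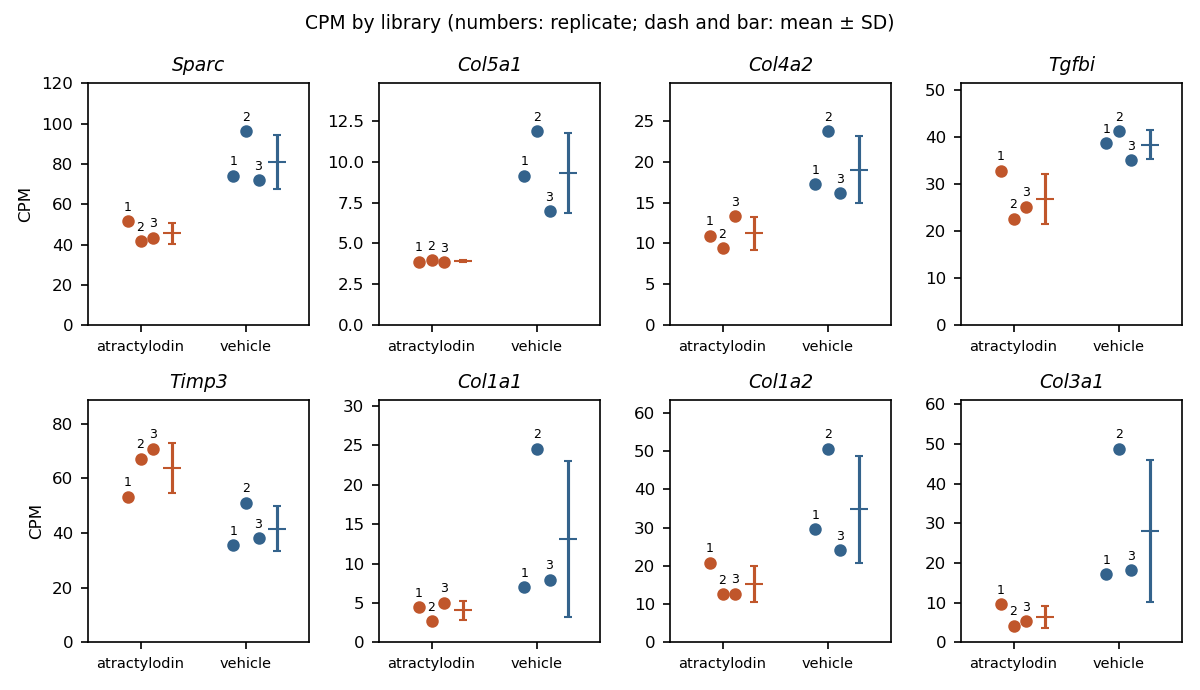
CPM of 8 matrix genes in each library (vertical axis, linear from 0), atractylodin to the left and vehicle to the right of each panel. Points carry the replicate number, and the dash with its bar is the mean ± SD (n = 3). For Col1a1, Col1a2 and Col3a1 the point of vehicle 2 (24.6, 50.7 and 48.9 CPM) lies far above the other vehicle points, whereas the vehicle points of Tgfbi lie between 35.1 and 41.2 CPM.

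Upstream sequence is shown for 4 of these genes because they moved in different directions or by very different amounts: Col5a1 and Tgfbi, which fell, Timp3, which rose, and Col3a1, the largest estimate. Of the 37 members 24 had an entry in the RefSeq promoter table on GRCm38.p6, with 26 entries in all. Each run is the genomic plus strand, which is also the gene's strand, from 250 bases before the RefSeq start up to the first annotated exon. Capitals mark TATAAA in Col3a1 and GGGCGG, on either strand, in Col5a1 and Tgfbi. The window of Timp3 also held 1 match to GGGCGG, at -15 from the RefSeq start. That match lies past the end of the printed run and is not shown. The windows of Sparc, Col4a1 and Col4a2 lie in annotated exons and are not printed.
Col5a1 chr2:27886175-27886424: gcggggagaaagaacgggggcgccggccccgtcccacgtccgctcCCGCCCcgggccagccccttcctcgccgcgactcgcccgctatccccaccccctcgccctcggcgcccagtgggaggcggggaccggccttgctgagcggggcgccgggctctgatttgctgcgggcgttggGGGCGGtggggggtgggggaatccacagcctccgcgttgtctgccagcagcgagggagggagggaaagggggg
Col3a1 chr1:45311288-45311537: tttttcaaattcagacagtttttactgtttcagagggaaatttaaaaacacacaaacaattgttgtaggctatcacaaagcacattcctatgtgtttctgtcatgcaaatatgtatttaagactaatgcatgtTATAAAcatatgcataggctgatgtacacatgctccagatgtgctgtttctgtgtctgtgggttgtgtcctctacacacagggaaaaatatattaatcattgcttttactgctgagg
Tgfbi chr13:56609336-56609522: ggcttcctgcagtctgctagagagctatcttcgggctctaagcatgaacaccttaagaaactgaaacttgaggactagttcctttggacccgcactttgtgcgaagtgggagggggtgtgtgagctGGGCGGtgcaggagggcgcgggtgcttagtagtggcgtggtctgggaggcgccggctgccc
Timp3 chr10:86300162-86300371: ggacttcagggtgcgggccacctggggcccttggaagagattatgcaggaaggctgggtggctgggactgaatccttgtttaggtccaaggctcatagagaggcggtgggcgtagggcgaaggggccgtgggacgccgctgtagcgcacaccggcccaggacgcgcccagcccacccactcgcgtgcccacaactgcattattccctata
The stretches differed in base composition. G and C made up 76.4% of the printed Col5a1 stretch, 59.4% of that of Tgfbi, 63.8% of that of Timp3 and 35.2% of that of Col3a1. A TATA box was searched as TATAAA and a CCAAT box by its own letters. GGGCGG stood for a GC box. The motif of AP-1 factors was TGA, any base and TCA. Both strands of the 250 upstream bases were searched, and hits of different motifs may overlap. TATAAA was in 7.69% of the 26 member windows and 12.4% of all 32851 windows that were kept. CCAAT was in 38.5% of the member windows and 33.8% of all. GGGCGG was in 65.4% of the member windows and 32.7% of all, where the median GC content was 60.8% in members and 52.4% in all windows. The AP-1 motif was in 1 member window, 3.85%, and in 6.75% of all. These are matches of letters in a window and do not show binding.

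The other interstitial collagens were Col14a1 and the chains of type VI collagen. None of the 4 passed in edgeR, 1 had an unadjusted p under 0.05, a share near the 21.5% of all rows, and DESeq2 and limma-voom each called 1, Col14a1. Col14a1, a fibril-associated collagen expressed by quiescent stellate cells and fibroblasts, had 30.2, 17.5 and 18.9 CPM in atractylodin 1, 2 and 3, against 32.8, 49.97 and 34.7 CPM in vehicle 1, 2 and 3. The groups did not overlap, although atractylodin 1 came close to vehicle 1. The log2 fold change was -0.85 ± 0.24 with an adjusted p of 0.0683, and it passed without atractylodin 1 (log2 -1.13, adjusted p = 0.000793).

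Type VI collagen forms beaded filaments that link cells to the interstitial fibres. Col6a3 had 7.07, 8.46 and 8.35 CPM in atractylodin 1, 2 and 3, against 8.61, 14.8 and 8.25 CPM in vehicle 1, 2 and 3. Apart from vehicle 2 the libraries lay close together, and the log2 fold change was -0.46 ± 0.24 (adjusted p = 0.289) with all libraries and -0.07 without vehicle 2. Col6a1 and Col6a2, neighbours on chromosome 10, averaged 1.63 ± 1.49 and 0.92 ± 0.61 CPM with atractylodin and 3.04 ± 0.68 and 1.69 ± 0.76 CPM with vehicle, with adjusted p-values of 0.509 and 0.430. The log2 estimate of Col6a2 was -0.88 with all libraries, -0.29 without vehicle 2 and -1.495 without atractylodin 1, and that of Col6a1 was -0.80 with all libraries and -1.67 without atractylodin 1. At these levels a count of 3 in vehicle 1, worth 1.61 CPM, covers much of the difference.

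Among 9 basement membrane genes Col4a2 fell, 8 did not pass, and the median log2 fold change was -0.45. All atractylodin libraries lay below all vehicle libraries for 5 of the 9 (12.6% of all rows), and 4 had an unadjusted p under 0.05 (21.5% of all rows). Col4a2 encodes a chain of type IV collagen, the network protein of basement membranes (chr8:11312805-11449287, plus strand). It had 11.0, 9.40 and 13.4 CPM in atractylodin 1, 2 and 3, against 17.2, 23.7 and 16.2 CPM in vehicle 1, 2 and 3. The groups were separate, and the fall was 1.71-fold (log2 -0.78 ± 0.20, adjusted p = 0.0204). The call was lost without vehicle 2 (log2 -0.55, adjusted p = 0.177) and also without atractylodin 1 or atractylodin 2.

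Col4a1 encodes the partner chain of the same protomer, and the annotated genes overlap head to head by 22 bases. It averaged 23.0 ± 1.78 CPM with atractylodin and 30.6 ± 5.63 CPM with vehicle, with no overlap between groups, an adjusted p of 0.0781 and a log2 estimate of -0.45 ± 0.15. Whether Col4a1 and Col4a2 differed in their response was not tested. Nidogen (Nid1), which bridges the laminin and type IV collagen networks, had 7.97, 6.16 and 8.35 CPM in atractylodin 1, 2 and 3, against 8.61, 14.9 and 11.7 CPM in vehicle 1, 2 and 3. Every atractylodin library was below every vehicle library by a small margin, and the log2 fold change was -0.72 ± 0.22 (adjusted p = 0.0583), or -0.51 without vehicle 2 (adjusted p = 0.312).

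Among the basement membrane genes Col15a1, a multiplexin of vessel walls, had the lowest counts and the largest estimate, at 0.57 ± 0.75 CPM with atractylodin and 2.68 ± 0.64 CPM with vehicle (log2 -2.18 ± 0.73, adjusted p = 0.095). No read was counted in atractylodin 2. Without atractylodin 3, the highest of its group, Col15a1 passed with a log2 estimate of -4.08 (adjusted p = 0.00541), and it also passed with no filter on low counts. Col18a1, the multiplexin that yields endostatin and is made by hepatocytes, averaged 370 ± 13.8 CPM with atractylodin and 395 ± 16.2 CPM with vehicle. Its log2 fold change was -0.09 ± 0.09, the smallest SE of the tested members. Of the laminin chains, Lama4 of vessel walls averaged 4.17 ± 0.87 CPM with atractylodin and 6.502 ± 1.69 CPM with vehicle (log2 -0.56 ± 0.30, adjusted p = 0.292). The shared laminin chains Lamb1, Lamb2 and Lamc1 had log2 fold changes of -0.12, -0.28 and -0.02, each within 2 SE of 0 and with adjusted p-values of 0.601 to 0.977.

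Of the 5 matrix glycoproteins Sparc and Tgfbi fell, Fn1 and Fbn1 did not pass, and Thbs1 was too low to test. Sparc, also called osteonectin, is a collagen-binding matricellular protein made by stellate and endothelial cells (chr11:55394500-55423183, minus strand). It had 51.5, 41.7 and 43.5 CPM in atractylodin 1, 2 and 3, against 74.3, 96.2 and 72.0 CPM in vehicle 1, 2 and 3. The lowest vehicle library was well above the highest atractylodin library. The fall was 1.79-fold (log2 -0.84 ± 0.13, adjusted p = 0.000706). Sparc alone among the members called kept its call in each of the 15 alternatives, with log2 estimates of -0.93 to -0.68 and adjusted p-values of 1.65e-10 to 0.00477, and without vehicle 2 the estimate was -0.68 with an adjusted p of 0.00455.

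Tgfbi is a TGF-beta-induced matrix protein that binds collagens and integrins (chr13:56609523-56639562, plus strand). It had 32.9, 22.7 and 25.2 CPM in atractylodin 1, 2 and 3, against 38.8, 41.2 and 35.1 CPM in vehicle 1, 2 and 3. The groups did not overlap, though atractylodin 1 lay near vehicle 3. Tgfbi fell 1.42-fold (log2 -0.51 ± 0.15, adjusted p = 0.0425). This call passed narrowly: it was lost in 8 of the 15 alternatives, among them DESeq2, limma-voom and the fits without vehicle 1, vehicle 2, vehicle 3, atractylodin 2 or atractylodin 3, with adjusted p-values of up to 0.179. Without vehicle 2 the log2 estimate was -0.44 (adjusted p = 0.176).

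Fibronectin (Fn1), the adhesive glycoprotein of plasma and early scar matrix, averaged 553 ± 127 CPM with atractylodin and 680 ± 89.5 CPM with vehicle (log2 -0.30 ± 0.16, adjusted p = 0.325). Atractylodin 3, at 699 CPM, lay among the vehicle libraries, and without it Fn1 passed (log2 -0.50, adjusted p = 0.0163). Fibrillin 1 (Fbn1), the core of elastic microfibrils, averaged 2.04 ± 0.39 CPM with atractylodin and 1.59 ± 0.65 CPM with vehicle, an estimate in the other direction (log2 0.24 ± 0.46, adjusted p = 0.817). Thrombospondin 1 (Thbs1), an activator of latent TGF-beta, had 3, 2 and 3 counts in atractylodin 1, 2 and 3, against 2, 13 and 7 counts in vehicle 1, 2 and 3.

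Biglycan and lumican are small leucine-rich proteoglycans that bind collagen fibrils. Neither passed in edgeR, DESeq2 or limma-voom, and 1 of the pair, Bgn, had an unadjusted p under 0.05 (21.5% of all rows did). Bgn had 55.4, 42.3 and 50.2 CPM in atractylodin 1, 2 and 3, against 70.5, 61.3 and 63.7 CPM in vehicle 1, 2 and 3. The groups did not overlap and vehicle 2 was the lowest vehicle library here. The log2 fold change was -0.39 ± 0.12 with an adjusted p of 0.0517, just short of the threshold, and it passed in 7 of the 15 alternatives, among them the fit without atractylodin 1 (adjusted p = 0.0272). Lum had 3.29, 4.70 and 2.09 CPM in atractylodin 1, 2 and 3, against 5.92, 4.12 and 4.77 CPM in vehicle 1, 2 and 3, with overlapping groups and an adjusted p of 0.440.

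Of the 3 lysyl oxidases only Loxl2 could be tested. It had 2.89, 2.19 and 2.09 CPM in atractylodin 1, 2 and 3, against 2.69, 6.95 and 3.07 CPM in vehicle 1, 2 and 3. Vehicle 2 alone stood out, and the log2 fold change of -0.94 ± 0.38 (adjusted p = 0.160) was -0.31 without it. Lox had 4, 0 and 0 counts in atractylodin 1, 2 and 3, against 0, 1 and 5 counts in vehicle 1, 2 and 3. Loxl1 had 13, 7 and 7 counts in the atractylodin libraries, against 1, 36 and 7 counts in the vehicle libraries, again with vehicle 2 highest. Neither Lox nor Loxl1 had enough counts for a test.

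Neither protease passed: in edgeR none of Mmp2 and Mmp14 had an unadjusted p under 0.05, and DESeq2 and limma-voom called neither. Mmp14, the membrane-bound collagenase that activates pro-MMP2, had 18.9, 15.9 and 21.7 CPM in atractylodin 1, 2 and 3, against 21.5, 25.2 and 20.9 CPM in vehicle 1, 2 and 3. The groups overlapped, with a log2 fold change of -0.27 ± 0.16 (adjusted p = 0.364). Mmp2, the gelatinase of stellate cells and fibroblasts, had 2.29, 1.98 and 1.503 CPM in atractylodin 1, 2 and 3, against 1.61, 4.38 and 1.62 CPM in vehicle 1, 2 and 3. Its estimate of -0.52 ± 0.46 (adjusted p = 0.566) became 0.25 without vehicle 2.

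Among the protease inhibitors Timp3 rose, Timp2 did not pass, and Timp1 was too low to test. Timp3, which stays bound to the matrix and inhibits metalloproteinases and the TNF-releasing protease ADAM17, lies at chr10:86300372-86349506 on the plus strand. It had 53.3, 67.1 and 70.8 CPM in atractylodin 1, 2 and 3, against 35.5, 51.0 and 38.2 CPM in vehicle 1, 2 and 3. The groups did not overlap, but vehicle 2 came close to atractylodin 1. Timp3 was 1.501-fold higher (log2 0.59 ± 0.14, adjusted p = 0.0218). Without vehicle 2 the log2 estimate was 0.78 (adjusted p = 0.00411), whereas the call was lost without vehicle 1 (0.52, adjusted p = 0.0888), vehicle 3, atractylodin 2 or atractylodin 3.

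Timp3 lies inside Syn3, a synapsin gene on the other strand, and was the 1 member of 37 whose last 500 bases overlap an exon of a gene on the opposite strand. The strand setting of the counting is not given in the sources used here, so reads of the pair may not be told apart. Syn3 itself averaged 5.64 ± 0.50 CPM with atractylodin and 5.38 ± 2.83 CPM with vehicle (adjusted p = 0.637).

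Timp2, which inhibits MMP2 and also helps to activate it, had 31.1, 26.8 and 23.3 CPM in atractylodin 1, 2 and 3, against 40.9, 34.9 and 30.4 CPM in vehicle 1, 2 and 3. The lowest vehicle library was just below the highest atractylodin library, and the log2 fold change was -0.35 ± 0.15 (adjusted p = 0.167). Timp1, the inducible inhibitor widely used as a marker of liver fibrosis, had 3, 2 and 0 counts in atractylodin 1, 2 and 3, against 0, 3 and 0 counts in vehicle 1, 2 and 3. No library held more than 3 counts of Timp1, so no fold is given.

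Tgfb1, the cytokine that drives collagen synthesis in stellate cells, had at most 1 count in any library and could not be compared. Ctgf, a matricellular target of TGF-beta and of YAP that is also called Ccn2, had 23.4, 11.0 and 19.6 CPM in atractylodin 1, 2 and 3, against 18.3, 20.6 and 15.8 CPM in vehicle 1, 2 and 3. The atractylodin libraries spanned the whole vehicle range, and the log2 fold change was -0.01 ± 0.25 (adjusted p = 0.982). Vim, the intermediate filament of mesenchymal cells and leukocytes, had 19.4, 11.1 and 13.9 CPM in atractylodin 1, 2 and 3, against 20.5, 30.6 and 12.8 CPM in vehicle 1, 2 and 3. These groups overlapped, and the log2 estimate of -0.53 ± 0.37 (adjusted p = 0.490) was -0.04 without vehicle 2.

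The spread of the members among libraries of 1 group is a description, with no test. The median coefficient of variation was 20.2% among the atractylodin libraries and 21.9% among the vehicle libraries over the 32 tested members, against 14.2% and 14.7% over all tested rows. The map of levels shows this by gene and library.

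**Figure D3:**
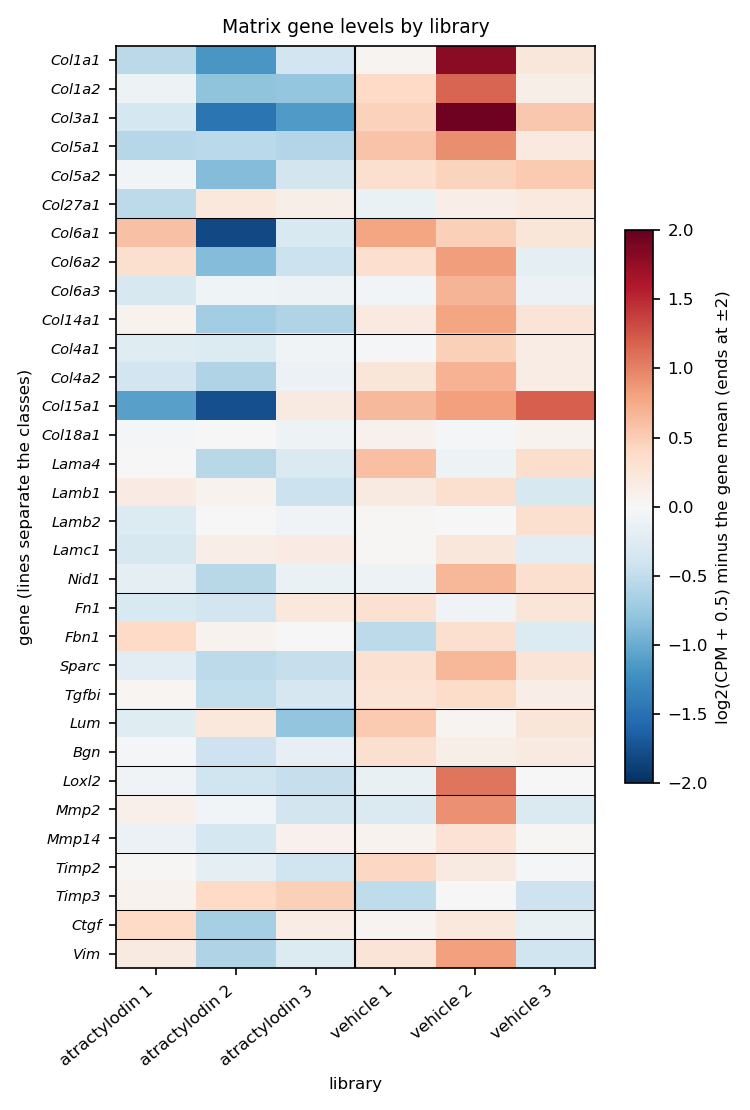
Level of each tested matrix gene (rows, by class) in each library (columns, atractylodin to the left of vehicle), as log2(CPM + 0.5) minus the mean of the gene over the 6 libraries, with the colour scale ending at ±2. The column of vehicle 2 holds the highest value for 18 of the 32 genes, and the row of Timp3 runs opposite to most others.

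Leaving out each library in turn shows how far the called genes and the main scar collagens rest on single libraries. Sparc kept its call in all 6 of these fits, whereas Tgfbi kept it in 1. Col4a2 kept it in 3, Col5a1 in 5 and Timp3 in 2. Col1a1 and Col1a2 passed in 1 fit each, the one without vehicle 3, with estimates of -2.13 and -1.46.

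**Figure D4:**
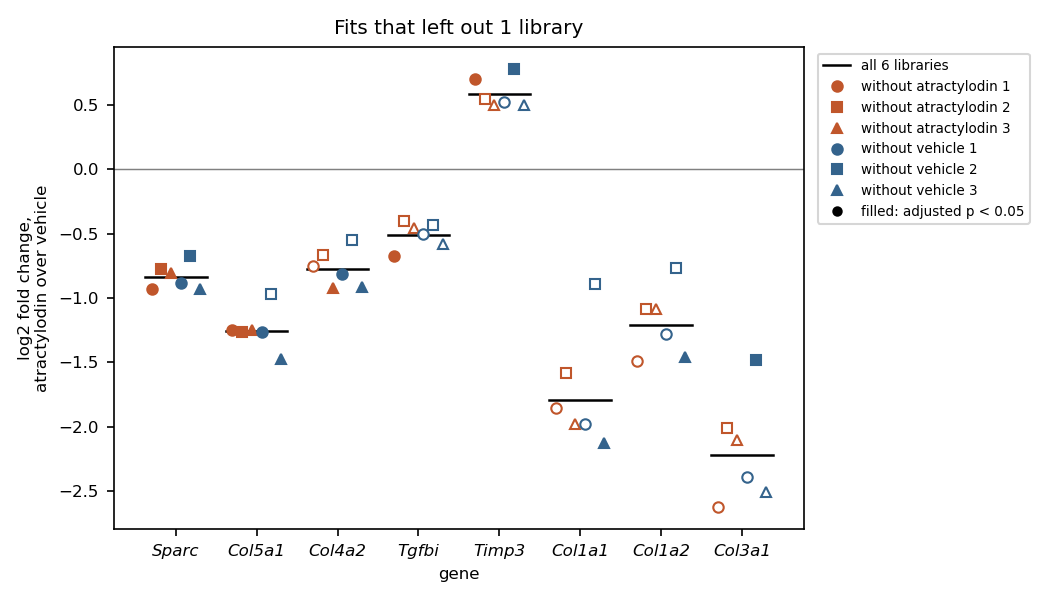
Log2 fold change, atractylodin over vehicle (vertical axis), of 8 matrix genes with all 6 libraries (black line) and with 1 library left out (symbols, one for each library). Filled symbols passed an adjusted p of 0.05. All symbols of Sparc are filled, and the estimate of Col1a1 without vehicle 2, -0.89, is the one nearest to 0 for that gene.

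A wider list of 191 other matrix genes was counted in the same fit. Of the 124 tested, 5 fell, 3 rose and 116 did not pass, where 3.33% of all rows fell and 3.92% rose, so these counts are near the background. The estimate was lower with atractylodin for 76 (61.3%, against 50.2% of all rows), and the median log2 fold change was -0.13. Vehicle 2 was the highest library for 39 of them (31.5%, against 16.3% of all rows), and an atractylodin library was for 49. The 10 tested collagens of this list leaned the other way, with 7 higher and 3 lower estimates and a median log2 fold change of 0.73. All atractylodin libraries lay above all vehicle libraries for 6 of the 10 (13.5% of all rows) and below them for 1 (12.6%). The wider list was not tested against the members.

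Among the falls of the wider list were a further fibrillar collagen and a gene of procollagen processing. Col5a3, the remaining type V collagen chain, had 9.76, 6.27 and 8.35 CPM in atractylodin 1, 2 and 3, against 18.3, 18.8 and 18.0 CPM in vehicle 1, 2 and 3. Its vehicle libraries lay close together, vehicle 2 included, and it fell 2.26-fold (log2 -1.17 ± 0.19, adjusted p = 0.00128). Pcolce, which enhances the removal of the C-propeptide from fibrillar procollagens, had 1.79, 3.03 and 2.59 CPM in atractylodin 1, 2 and 3, against 8.07, 7.64 and 7.03 CPM in vehicle 1, 2 and 3. The groups were far apart, and Pcolce fell 3.02-fold (log2 -1.59 ± 0.30, adjusted p = 0.00317). Both kept the call in each of the 15 alternatives.

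In the TGF-beta pathway the receptor gene Tgfbr2 fell, with 10.1 ± 0.86 CPM with atractylodin and 17.7 ± 4.49 CPM with vehicle (log2 -0.77 ± 0.21, adjusted p = 0.0283). Skil, which encodes SnoN, a repressor of SMAD proteins, rose. It had 21.7, 19.1 and 18.3 CPM in atractylodin 1, 2 and 3, against 6.998, 11.8 and 9.94 CPM in vehicle 1, 2 and 3, without overlap (log2 0.94 ± 0.19, adjusted p = 0.00416). Skil kept its call in the 6 leave-one-out fits and lost it only when libraries were thinned, whereas that of Tgfbr2 was lost without vehicle 1, vehicle 2 (log2 -0.55, adjusted p = 0.219), atractylodin 1 or atractylodin 2.

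The integrin gene Itga4, a fibronectin receptor chain of leukocytes, rose to 16.2 ± 2.23 CPM with atractylodin, against 8.88 ± 1.30 CPM with vehicle (log2 0.88 ± 0.20, adjusted p = 0.00958), and its call was lost without vehicle 2 (log2 0.73, adjusted p = 0.0654). The other calls lay closer to the threshold. The membrane-type metalloproteinase gene Mmp15 averaged 12.7 ± 1.38 CPM with atractylodin and 18.5 ± 1.47 CPM with vehicle (adjusted p = 0.0486), and Adamts7, a protease of cartilage and vessel matrix, averaged 2.53 ± 0.75 CPM with atractylodin and 5.28 ± 1.08 CPM with vehicle (adjusted p = 0.0484). Both calls, on a log2 fold change of -0.57 for Mmp15 and -1.13 for Adamts7, were lost in each of the 6 leave-one-out fits, with adjusted p-values of up to 0.187 and 0.218, both without vehicle 2. Col19a1, a collagen of basement membrane zones, rose to 2.73 ± 0.77 CPM with atractylodin, against 0.68 ± 0.23 CPM with vehicle (log2 1.88 ± 0.51, adjusted p = 0.0315), and lost its call in 5 of these fits, without atractylodin 1, atractylodin 2 or any one vehicle library, with adjusted p-values of up to 0.151 and 0.0505 without vehicle 2.

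Markers of the cells that make or hold matrix moved with the groups to different degrees, and their part in the matrix results was not tested. Some myofibroblast, endothelial and lipid-associated macrophage markers, such as Dpt, are also in the wider matrix list, so these lists are not separate from it. The 12 stellate cell markers summed to 127.5 to 167 CPM with atractylodin and 163 to 186.3 CPM with vehicle. Cygb, a globin gene of stellate cells, fell, with 19.4 ± 2.08 CPM with atractylodin and 30.2 ± 3.36 CPM with vehicle (log2 -0.61 ± 0.15, adjusted p = 0.0154). Colec11, the most abundant, averaged 40.9 ± 11.0 CPM with atractylodin and 44.6 ± 10.1 CPM with vehicle (adjusted p = 0.690). The call of Cygb was lost without vehicle 1 or atractylodin 3 (adjusted p of up to 0.0624). The 10 myofibroblast and portal fibroblast markers summed to 30.91 to 34.99 CPM with atractylodin and 32.84 to 51.51 CPM with vehicle, and 1, Pi16, was at 0 in every library. In edgeR none of the 8 tested passed and 3 had an unadjusted p under 0.05 (21.5% of all rows did). The edgeR adjusted p was 0.115 for Dpt and 0.592 for the most abundant, Tagln. DESeq2 called 0.

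The 15 sinusoidal endothelial markers summed to 531.3 to 551.5 CPM with atractylodin and 602.4 to 627.1 CPM with vehicle, so these groups did not overlap. By edgeR's test Stab2, Fcgr2b and Ptprb were called lower with atractylodin (3.33% of all rows were) and Lyve1 higher (3.92% of all rows). DESeq2 and limma-voom each called 3 of the 15. The log2 estimates of this list had a median of -0.32. The most abundant, Ptprb, averaged 80.6 ± 3.42 CPM with atractylodin and 101 ± 1.36 CPM with vehicle (adjusted p = 0.0437), and Fcgr2b, with the smallest p, had an adjusted p of 0.0254. Ptprb passed in none of the 6 leave-one-out fits, and Stab2, Fcgr2b and Lyve1 in 1 each. Over the 15 alternatives the adjusted p reached 0.155 for Ptprb, 0.253 for Stab2, 0.0849 for Fcgr2b and 0.160 for Lyve1. Without vehicle 2 the log2 estimates were -0.53 for Stab2 (adjusted p = 0.121), -0.67 for Fcgr2b (0.0572), -0.33 for Ptprb (0.0992) and 0.81 for Lyve1 (0.0696). In that fit 1 other marker of the 15 passed, where 2.29% of all rows fell and 2.8% rose. The 7 cholangiocyte markers summed to 28.19 to 28.3 CPM with atractylodin and 48.85 to 67.29 CPM with vehicle. Of the 3 tested Sox9 (adjusted p = 0.00434) and Tstd1 (adjusted p = 0.00156) fell, where 3.33% of all rows did. Sox9 and Tstd1 kept their calls in each of the 15 alternatives. The defining keratin genes Krt19 and Krt7 held at most 13 and 5 counts in a library. Sox9 and Tstd1 made up most of the sum, and the other 5 markers summed to 3.14 ± 1.14 CPM with atractylodin and 2.78 ± 1.02 CPM with vehicle.

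Macrophage markers were also highest in vehicle 2. The 12 Kupffer cell and macrophage markers summed to 314 to 471 CPM with atractylodin and 393.5 to 550.2 CPM with vehicle, with vehicle 2 highest for 9. In edgeR none passed and 4 of the 12 had an unadjusted p under 0.05 (21.5% of all rows did). The edgeR adjusted p was 0.112 for Csf1r and 0.577 for the most abundant, Cd5l. DESeq2 called 0. Csf1r passed without atractylodin 1 (log2 -0.48, adjusted p = 0.0279). The 7 markers of lipid-associated macrophages, a population of fatty and scarred liver, summed to 41.25, 32.89 and 38.92 CPM in atractylodin 1, 2 and 3, against 74.29, 135.1 and 62.17 CPM in vehicle 1, 2 and 3. Vehicle 2 was the highest library for each of the 6 tested. Of these Spp1 (adjusted p = 0.00288) and Cd63 fell, where 3.33% of all rows did. Spp1 kept its call in each of the 15 alternatives. Lpl, the most abundant, averaged 11.3 ± 1.54 CPM with atractylodin and 36.7 ± 17.9 CPM with vehicle (adjusted p = 0.0502). Without vehicle 2 the call of Cd63 was lost (log2 -0.62, adjusted p = 0.193), as it was without vehicle 1 or any one atractylodin library, whereas Lpl passed (log2 -1.19, adjusted p = 0.00116), as it did without vehicle 3 (adjusted p = 0.00209). The plot of summed marker levels shows these lists by library.

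**Figure D5:**
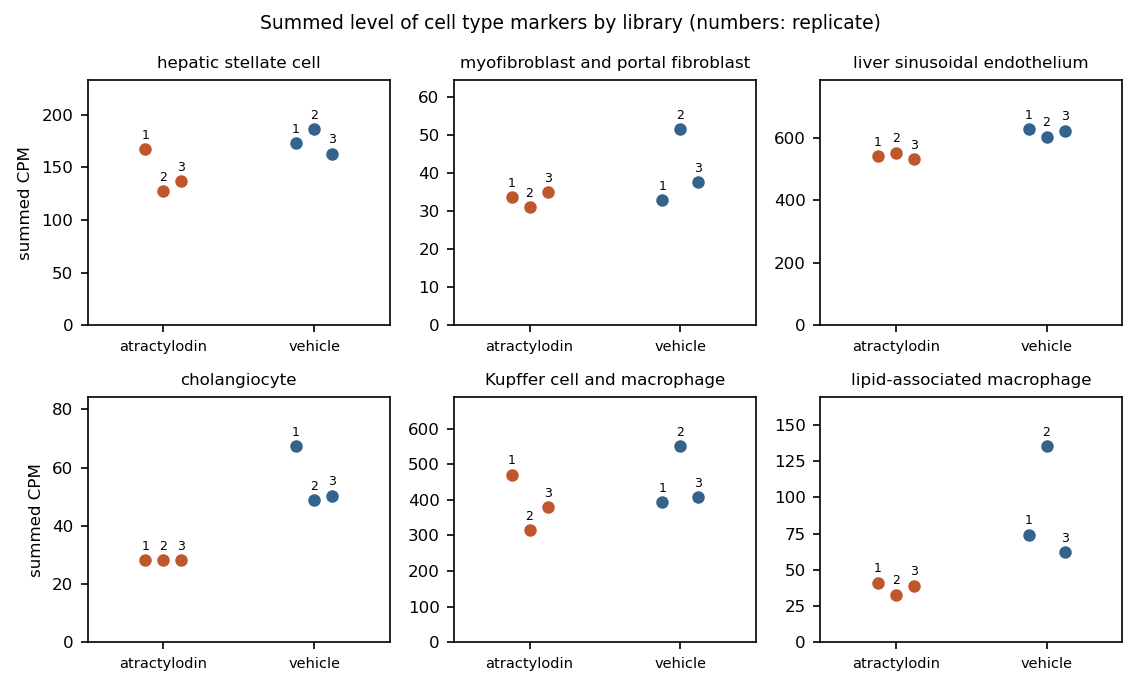
Summed CPM of 6 cell type marker lists (vertical axis, linear from 0) in each library, atractylodin to the left and vehicle to the right of each panel, with points numbered by replicate. Vehicle 2 lies at 135.1 CPM in the lipid-associated macrophage panel, above every other library. In that panel and in the cholangiocyte and sinusoidal endothelium panels all vehicle points lie above all atractylodin points.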

How the data were processed

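Liver RNA of 6 libraries was profiled with Lexogen QuantSeq. The authors deposited raw counts per gene symbol, 1 file per library, with no normalization. Bowtie2, bedtools and the build mm10 were used, per the submitters' processing notes. The annotation and the handling of multi-mapping reads, strand and molecular identifiers are not given in the sources used here, so floors of 3 counts cover counting error only.

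Of 23282 rows 44 repeated a symbol and 4459 held no count. No pair of libraries was alike within sampling noise (chi-square per degree of freedom of at least 2.75). Counts were filtered with filterByExpr, scaled by TMM and tested with the robust quasi-likelihood test of edgeR 4.0.16 (R 4.3.3), with Benjamini-Hochberg adjustment over 12505 rows at 0.05. The SE of a log2 fold change is its size over the root of F, and other errors are SD. The scripts were tested on simulated data. Alternatives were DESeq2 1.42.0, limma-voom (limma 3.58.1), RLE, upper quartile and total count scaling, omitting the filter, requiring a mean CPM of 5, a replicate block, thinning to the depth of vehicle 1 and leaving out each library. The labels give no batch.

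The members, the wider list and the marker lists were chosen with earlier results of these data known. Per-library values were set for members past the threshold, the 2 smallest p-values of each class, Col1a1, Col3a1 and Timp1. Named from the wider list were genes past the threshold, and from marker lists the smallest p and the most abundant gene. Member counts of the stellate cell list and 1 of its genes are not reported here. Cygb, Pi16, Stab2, Lyve1, Cd63, Krt19, Krt7 and Syn3 were named after their values were seen. Positions are from GENCODE M21 on GRCm38 (mm10) and upstream sequences from RefSeq on GRCm38.p6. Plots used matplotlib 3.10.9 in Python 3.11.15.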

Additional observations from a re-analysis of the deposited data

How the results depend on the processing

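Over 15 alternatives, 405 of 464 values of the tested members kept their direction and side of the threshold, 17 lost the threshold, 30 gained it and 12 turned sign; none of the causes was tested. Of the members, 7 fell with total count scaling, 10 with no filter and 7 with DESeq2, where 5.65%, 3.24% and 2.91% of all rows fell against 3.33% in edgeR as reported. In leave-one-out fits 2 to 5 members fell and 0 to 1 rose, where 1.67% to 2.82% of all rows fell. In those fits 236 to 400 of 12768 to 12920 rows rose. Of the wider list, 10 fell with total counts and 11 with no filter (6 rose, where 735 of 18823 rows did). On that list 3 fell with DESeq2 and 3 after thinning, where 2.57% of all rows fell after thinning. In leave-one-out fits 2 to 7 of the wider list fell and 1 to 4 rose, beside the same background. Over the 32 members tested with all libraries the median was -0.67 to -0.39 in leave-one-out fits, and over the members tested in each fit -0.72 to -0.39. Log2 fold changes that turned sign, none of them called, ranged over leave-one-out fits from -0.34 to 0.11 for Lamb1, -0.16 to 0.15 for Lamc1, -0.87 to 0.25 for Mmp2, -0.24 to 0.24 for Ctgf and -0.26 to 0.073 for Col27a1. Thinning gave 0.19 for Col27a1, 0.44 for Lamb2, 0.27 for Lamc1 and 0.017 for Colec11. Shared replicate numbers did not pair the libraries, with correlations of deviations of -0.0344, -0.0947 and 0.0327. With the replicate block 5 members fell and 1 rose, Lamc1 stood at 0.0285, and 811 rows were called against 906. The shallow vehicle 1 limits genes of a few CPM, such as the type VI collagens, Col15a1 and the lysyl oxidases.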
